A study of Saccharomyces cerevisiae with 9 samples.

Results

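Ribosome biogenesis factors are the proteins that process and fold ribosomal RNA before it becomes part of a ribosome. A set of 57 such genes of budding yeast, named by symbol, was taken from the deposited gene tables and divided by assembly pathway into 30 small-subunit factors, 25 large-subunit factors and 2 genes that act in both pathways. Of these, 56 had a row among the 5205 genes of the count table, and all 56 passed the filter on low counts that left 5172 genes for testing. MAK5, a large-subunit RNA helicase, was not analysed here, so 24 large-subunit factors were measured. The rule used gene names and no measured value, but the genes were chosen with earlier results of these data known.

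The 9 libraries came from strain W303 of Saccharomyces cerevisiae, with 3 biological replicates in each of 3 groups. K504E-red and K504E-white were red and white colonies of the cdc13-K504E mutant, and WT-red were red colonies of the wild type. Cdc13 is an essential protein that binds the single-stranded end of telomeres, and K504E is a substitution in it. All groups shared 15 days of stationary phase in YPD, a rich medium, with no dilution, and RNA was enriched for poly(A). No group was white and wild type, so colour and genotype cannot be told apart wherever K504E-white is set against WT-red. The labels do not say whether the colonies of a group came from 1 clone. Red colour in W303 comes from a block at ADE2 in adenine synthesis.

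In yeast the small and large ribosomal subunits are built on a single long RNA precursor in the nucleolus. The small-subunit processome forms on the leading part of that precursor. It holds the UtpA, UtpB and UtpC complexes, the U3 small nucleolar ribonucleoprotein (snoRNP) and the Mpp10 complex. Large-subunit factors join the following part of the precursor, remove its spacers and prepare the particle for export. Genes for both sets of factors are known as a coexpressed regulon that is active in growing cells and reduced under stress and starvation.

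Total counts per library were 27388755 to 33228022 in K504E-red, 33712194 to 34634199 in K504E-white and 28163511 to 34564131 in WT-red. Counts of the 56 factors ranged from 373 to 32309 in a library. CDC13, the mutated gene, had 21.9, 31.8 and 29.4 CPM (counts scaled to the TMM library size) in K504E-red, 21.8, 20.9 and 21.0 CPM in K504E-white and 23.4, 24.4 and 27.6 CPM in WT-red. A count per gene does not show the substitution, so CDC13 does not check the genotype. ADE2 had 424, 438 and 454 CPM in K504E-white, against 129, 112 and 120 CPM in K504E-red and 84.3, 77.3 and 97.0 CPM in WT-red.

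A pair of libraries lay at the ends of the range for these factors. K504E-red replicate 1 was the lowest of the 9 libraries for all 56 factors, against 15.0% of all genes tested. WT-red replicate 2 was the highest of the 9 libraries for 51 factors, against 13.3% of all genes tested. The numbers of factors called in each comparison are also given without 1 or both of them.

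The 56 factors together took 0.549%, 0.646% and 0.646% of the counts in the K504E-red libraries, 0.914%, 0.908% and 0.920% in the K504E-white libraries and 0.952%, 1.11% and 0.914% in the WT-red libraries. The share was thus lowest in K504E-red, where no library reached those of the other groups. K504E-white spanned a narrow range that overlapped that of WT-red. The means were 0.614% ± 0.056 in K504E-red, 0.914% ± 0.006 in K504E-white and 0.992% ± 0.104 in WT-red (SD, n = 3 each). In bulk RNA, fewer cells that express these genes and less of their RNA per cell cannot be told apart.

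**Figure D1:**
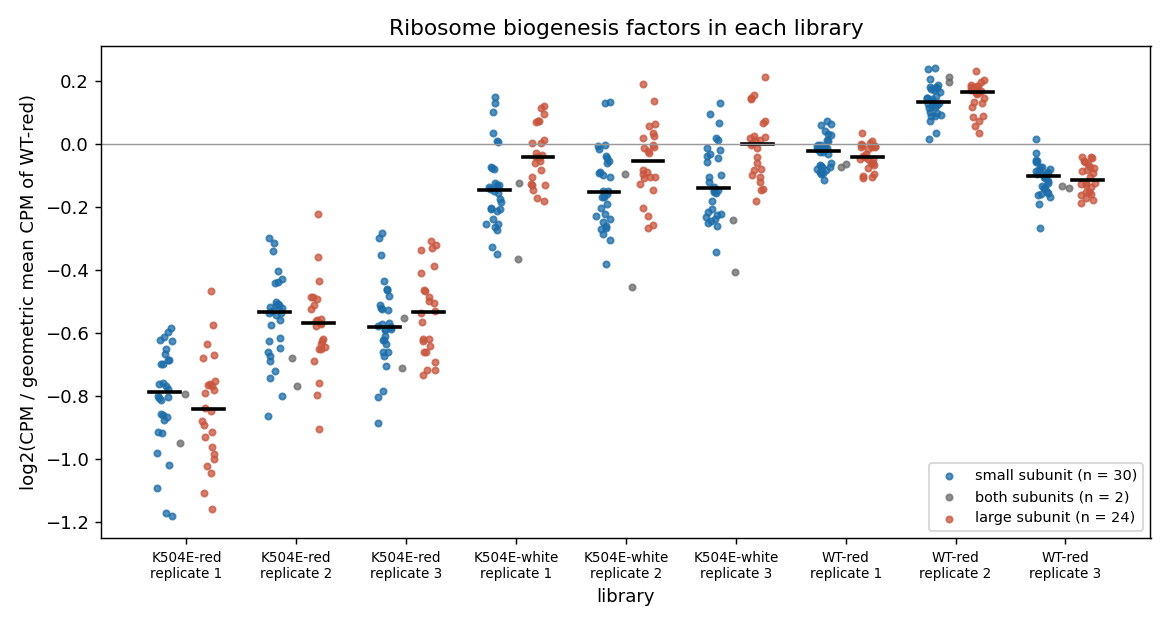
Each point is 1 of the 56 factors in 1 library, as log2 of its CPM over the geometric mean CPM of the WT-red libraries; black bars are medians of the 30 small-subunit (blue) and 24 large-subunit (red) factors, and grey points are the 2 factors of both pathways. The medians over all 56 factors were -0.80, -0.56 and -0.57 in the K504E-red libraries, -0.12, -0.10 and -0.08 in the K504E-white libraries and -0.03, 0.15 and -0.11 in the WT-red libraries.

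Setting K504E-red against WT-red compares the mutant with the wild type among red colonies. All 56 factors fell in K504E-red by edgeR's quasi-likelihood test at a Benjamini-Hochberg adjusted p under 0.05, and the highest adjusted p among them was 0.0052. Of all 5172 genes tested, 21.7% were called lower in that comparison. The median log2 fold change of the factors was -0.65, which is 36.1% below WT-red, while the median over all genes tested was 0.03. Single factors ranged from -0.94 to -0.33, and none fell by 2-fold or more. The 3 K504E-red libraries lay below the 3 WT-red libraries for all 56 factors, which held for 24.9% of all genes tested. Without WT-red replicate 2, or without K504E-red replicate 1, all 56 factors were again called. Without both, 55 were called, the medians moved to -0.489 for small-subunit and -0.457 for large-subunit factors, and RRP36 was no longer called (adjusted p = 0.0854 by edgeR).

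By pathway, the median log2 fold change was -0.65 over the 30 small-subunit factors and -0.64 over the 24 large-subunit factors. Both factors that act in the 2 pathways fell, RRP5 by 0.68 and RRP12 by 0.81 on the log2 scale.

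Setting K504E-white against K504E-red compares the colours within the mutant. Of the 56 factors, 55 rose in K504E-white by the same edgeR test, where 27.2% of all genes tested were called higher. The exception was RRP36, a small-subunit processing factor, with a log2 fold change of 0.25 (SE 0.12) and an adjusted p of 0.0924 by edgeR. The median log2 fold change of the factors was 0.54, or 45.5% above K504E-red, and single factors ranged from 0.19 to 0.93. The 3 K504E-white libraries lay above the 3 K504E-red libraries for all 56 factors, which held for 30.7% of all genes tested. The median was 0.51 over small-subunit and 0.60 over large-subunit factors. Without K504E-red replicate 1, 53 factors were called and those medians were 0.415 and 0.505. Without that library and WT-red replicate 2, 54 were called. UTP5 was among the calls lost without K504E-red replicate 1 (log2 fold change 0.14, adjusted p = 0.105 by edgeR).

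Between K504E-white and WT-red few of the factors were called in this fit, and the number varied between settings. By the same edgeR test 6 of 56 fell in K504E-white, none rose, and 50 were not called. Of all genes tested, 23.5% were called lower and 23.3% higher. The 6 were RRP12, UTP20, PWP2, KRE33, NOP1 and UTP15, of which 5 were grouped here with the small-subunit factors and RRP12 with both pathways. NOP1 also serves snoRNPs other than U3. None of the 24 large-subunit factors was called in this fit. The median log2 fold change was -0.12 over all 56 factors, -0.16 over small-subunit factors and -0.05 over large-subunit factors, with a range of -0.41 to 0.16. The 3 K504E-white libraries lay below all WT-red libraries for 16 factors, against 28.4% of all genes tested, and overlapped them for 40. An adjusted p above the threshold does not show that the 50 factors were equal in these groups.

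The number called in that comparison depended on the filter, the scaling and on single libraries. It was 16 with genes of at least 1 count, 14 with upper quartile scaling and 16 when the model held only the groups compared. The share of all genes called under each setting is not given here. These counts can therefore not be read as a shift particular to the factors. Large-subunit factors were among those called lower in several settings: RRP14 with upper quartile scaling, NSA1 and RRP14 with genes of at least 1 count, and NSA1, PWP1 and RRP14 without K504E-red replicate 3. Without WT-red replicate 2, 2 factors were called lower (UTP20 and RRP12) and 3 higher (KRI1, NOC2 and NOP2), and the median of large-subunit factors was 0.0323. Without WT-red replicate 3, 18 were called lower and none higher. Without WT-red replicate 2 and K504E-red replicate 1, 4 were called in each direction. UTP20 and RRP12 were called lower in each of the 9 fits that left out 1 library.

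Across the comparisons, 49 factors fell in K504E-red relative to WT-red, were higher in K504E-white than in K504E-red and not called between K504E-white and WT-red. A further 6 differed in the same directions and were also lower in K504E-white than in WT-red. These comparisons share libraries with one another, so they are not independent. Of all genes tested, 21.7% were called lower in K504E-red against WT-red and 27.2% higher in K504E-white against K504E-red. The share of all genes with the joint pattern is not given here.

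**Figure D2:**
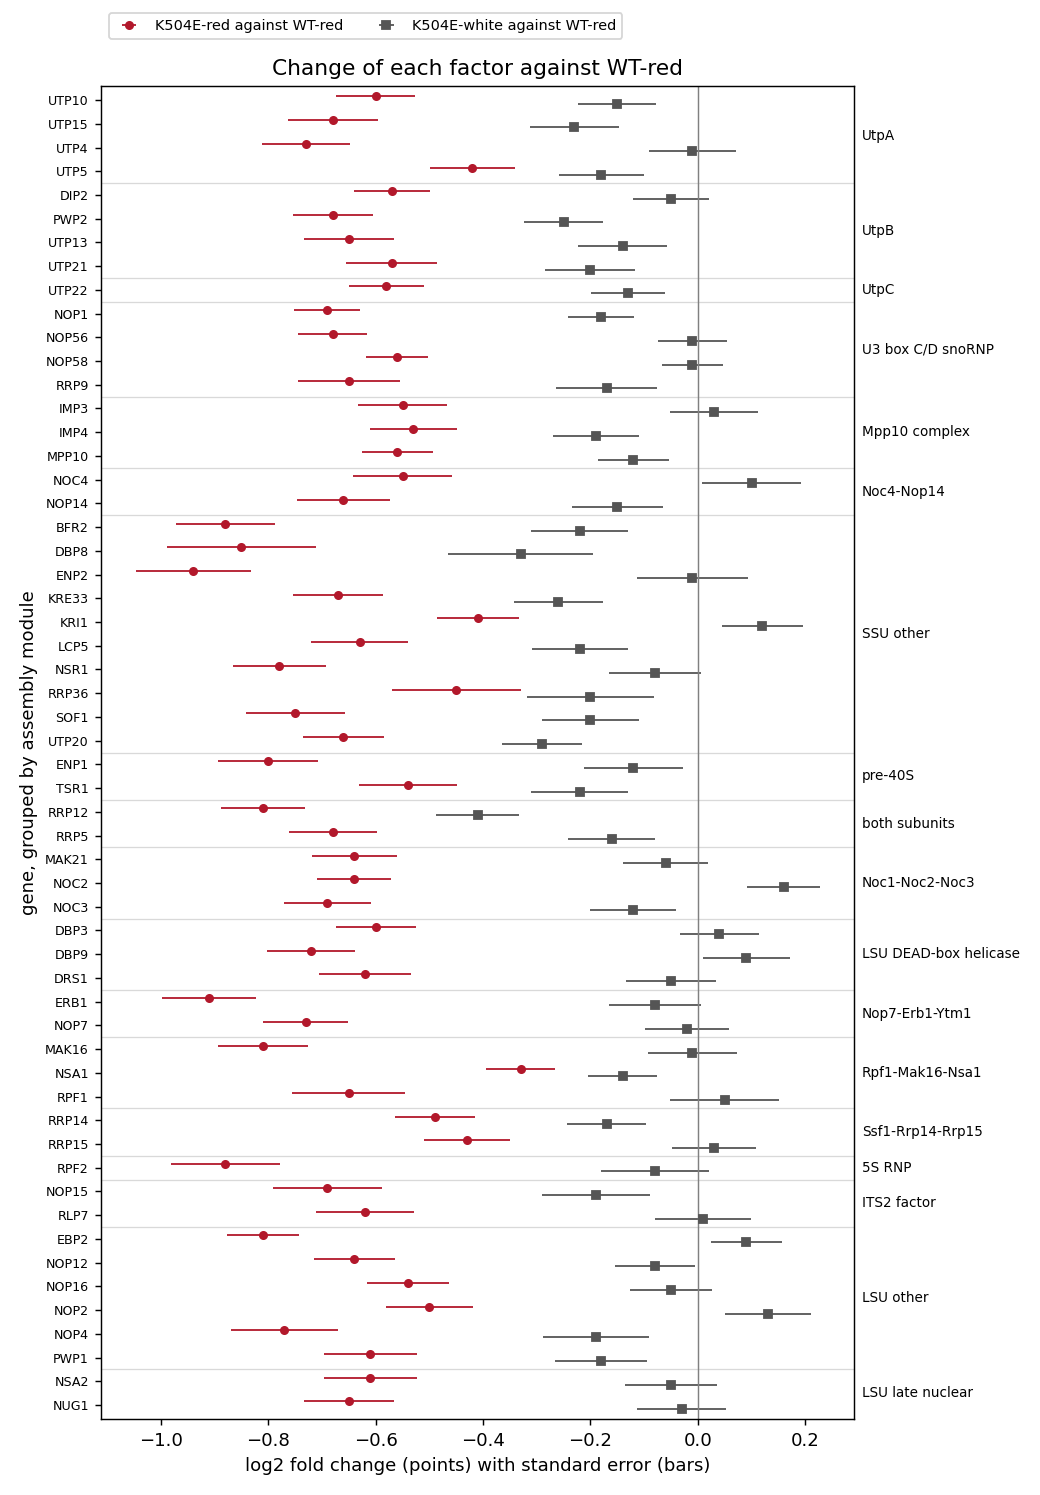
Log2 fold changes (points) with standard errors (bars) of the 56 factors for K504E-red (circles) and K504E-white (squares), each relative to WT-red, grouped by assembly module. The circles lie between -0.94 and -0.33, and the squares between -0.41 and 0.16.

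Among the small-subunit factors, UtpA is the complex that binds the start of the precursor first. UTP10, its largest protein here, had 109, 124 and 114 CPM in K504E-red, 159, 169 and 148 in K504E-white and 174, 194 and 160 in WT-red. UTP4 had 78.7, 90.1 and 99.9 CPM in K504E-red, 152, 144 and 147 in K504E-white and 139, 167 and 141 in WT-red. The K504E-red libraries of both genes lay below every other library, whereas K504E-white overlapped WT-red for UTP10 and lay within its range for UTP4. The UtpA genes fell by 0.42 (UTP5) to 0.73 (UTP4) on the log2 scale in K504E-red against WT-red. UTP15 fell in K504E-white against WT-red as well, by 0.23 on the log2 scale (SE 0.0825, adjusted p = 0.0305 by edgeR).

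UtpB is built largely of proteins with WD repeats. PWP2 had 83.3, 94.0 and 95.1 CPM in K504E-red, 123, 119 and 125 in K504E-white and 138, 164 and 135 in WT-red. Its 3 groups did not overlap, with K504E-red lowest and WT-red highest. UTP13 had 59.5, 76.8 and 72.6 CPM in K504E-red, 99.7, 94.7 and 102 in K504E-white and 104, 119 and 105 in WT-red. The log2 fold changes of PWP2, DIP2, UTP13 and UTP21 in K504E-red against WT-red were -0.68, -0.57, -0.65 and -0.57. The K504E-white values relative to WT-red were -0.25, -0.05, -0.14 and -0.20, and PWP2 alone of these 4 was called (adjusted p = 0.00927 by edgeR). UTP22 of the UtpC complex had 80.9, 84.2 and 81.3 CPM in K504E-red, 116, 115 and 106 in K504E-white and 122, 135 and 111 in WT-red. Its K504E-white and WT-red libraries overlapped.

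The U3 snoRNP guides early cleavage of the precursor, and its core proteins also serve the other box C/D snoRNPs. NOP1, the yeast fibrillarin that methylates ribosomal RNA, had 479, 526 and 561 CPM in K504E-red, 752, 719 and 754 in K504E-white and 823, 899 and 797 in WT-red. NOP1 was the most abundant factor per length in each group, at 525 FPKM (fragments per kilobase scaled for depth) in K504E-red, 751 FPKM in K504E-white and 851 FPKM in WT-red. It fell by 0.18 on the log2 scale in K504E-white against WT-red (SE 0.0613, adjusted p = 0.0236 by edgeR). NOP58, another core protein, had 412, 451 and 468 CPM in K504E-red, 656, 637 and 659 in K504E-white and 660, 688 and 616 in WT-red. Here K504E-white lay within the range of WT-red. NOP56, which pairs with NOP58, had the same log2 fold change as NOP58 when K504E-white was set against WT-red, -0.01. RRP9, which is specific to U3, had 53.4, 67.5 and 65.3 CPM in K504E-red, 87.3, 78.4 and 93.1 in K504E-white and 101, 106 and 84.9 in WT-red. Its groups K504E-white and WT-red overlapped.

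The Mpp10 complex helps U3 pair with the precursor. MPP10 had 94.5, 104 and 104 CPM in K504E-red, 135, 138 and 138 in K504E-white and 148, 162 and 136 in WT-red. IMP3 had 29.0, 32.0 and 34.5 CPM in K504E-red, 50.1, 46.4 and 46.0 in K504E-white and 45.6, 47.2 and 47.2 in WT-red. For both genes K504E-red was the lowest group and the other groups overlapped. The log2 fold changes of MPP10, IMP3 and IMP4 in K504E-red against WT-red lay within -0.56 to -0.53. NOP14, which binds the small-subunit factor Noc4, had 66.1, 83.9 and 80.1 CPM in K504E-red, 106, 113 and 109 in K504E-white and 114, 136 and 113 in WT-red. NOC4 itself had 55.0, 67.7 and 75.6 CPM in K504E-red, 107, 106 and 97.9 in K504E-white and 95.6, 105 and 89.8 in WT-red. In K504E-white NOC4 had a log2 fold change of 0.10 against WT-red (SE 0.0915, adjusted p = 0.414 by edgeR).

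The remaining processome factors had log2 fold changes of -0.94 to -0.41 in K504E-red against WT-red. ENP2 (W303 contig 199, 17833 to 19956, plus strand), a nucleolar factor, had 43.8, 59.4 and 53.8 CPM in K504E-red, 100, 92.7 and 106 in K504E-white and 93.8, 117 and 89.3 in WT-red. It had the lowest log2 fold change of the 56 in K504E-red against WT-red, -0.94 (SE 0.107, adjusted p = 2.55e-06 by edgeR), and the highest in K504E-white against K504E-red, 0.93 (SE 0.107, adjusted p = 9.21e-07). K504E-white lay within the WT-red range for ENP2. BFR2, a partner of ENP2 in the processome, had 28.3, 33.2 and 37.0 CPM in K504E-red, 50.6, 54.4 and 51.2 in K504E-white and 59.3, 65.3 and 56.8 in WT-red. Its groups were ordered K504E-red, K504E-white and WT-red with no overlap. BFR2 fell by 0.88 on the log2 scale in K504E-red against WT-red. DBP8, a DEAD-box helicase, had 18.9, 28.6 and 24.4 CPM in K504E-red, 33.4, 32.7 and 36.4 in K504E-white and 43.4, 50.3 and 35.4 in WT-red. Its replicate spread was among the wider ones, and its log2 fold change in K504E-white against WT-red, -0.33 (SE 0.135), gave an adjusted p of 0.0503 by edgeR.

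UTP20 (contig 67, 58874 to 66355, minus strand), a very long repeat protein, had 58.1, 64.1 and 70.6 CPM in K504E-red, 85.0, 85.3 and 79.9 in K504E-white and 102, 108 and 94.6 in WT-red. KRE33, the acetyltransferase of ribosomal RNA cytidines, had 67.5, 84.6 and 78.7 CPM in K504E-red, 97.4, 107 and 102 in K504E-white and 113, 137 and 118 in WT-red. In both genes the 3 groups were apart, with K504E-white between the others. UTP20 fell by 0.29 (SE 0.0742, adjusted p = 0.00404) and KRE33 by 0.26 (SE 0.0831, adjusted p = 0.0149) on the log2 scale in K504E-white against WT-red by edgeR. NSR1, the yeast relative of nucleolin, had 256, 331 and 325 CPM in K504E-red, 476, 497 and 507 in K504E-white and 487, 590 and 486 in WT-red. Its K504E-red libraries were all below the others, and K504E-white overlapped WT-red.

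At the other end stood KRI1, UTP5 and RRP36. KRI1, a nucleolar factor, had 156, 192 and 194 CPM in K504E-red, 261, 261 and 261 in K504E-white and 227, 265 and 226 in WT-red. Relative to WT-red it changed by -0.41 on the log2 scale in K504E-red, and its value in K504E-white, 0.12, was not called. UTP5 had 121, 147 and 153 CPM in K504E-red, 170, 159 and 167 in K504E-white and 175, 206 and 179 in WT-red. RRP36 (contig 7, 118358 to 119260, plus strand) had 12.3, 15.0 and 13.4 CPM in K504E-red, 16.0, 16.4 and 15.7 in K504E-white and 17.7, 19.6 and 18.1 in WT-red. RRP36 had the lowest CPM of the 56 factors in all groups and the highest adjusted p in K504E-red against WT-red.

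Later factors stay with the small-subunit precursor as it leaves the nucleolus. ENP1 had 55.7, 63.1 and 71.4 CPM in K504E-red, 99.8, 97.9 and 107 in K504E-white and 105, 127 and 99.8 in WT-red. TSR1, which resembles a GTPase, had 78.8, 102 and 97.9 CPM in K504E-red, 117, 112 and 119 in K504E-white and 134, 153 and 120 in WT-red. K504E-red was below the other groups in both genes, and K504E-white overlapped WT-red in ENP1 but not in TSR1. TSR1 was not called in K504E-white against WT-red (log2 fold change -0.22, SE 0.0906, adjusted p = 0.0547 by edgeR).

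RRP5 binds the precursor on both sides of the cleavage that parts the subunits. It had 122, 132 and 144 CPM in K504E-red, 194, 198 and 179 in K504E-white and 201, 245 and 192 in WT-red. RRP12 (contig 123, 86778 to 90464, plus strand), an export factor for both subunits, had 112, 127 and 132 CPM in K504E-red, 168, 158 and 163 in K504E-white and 207, 248 and 197 in WT-red. RRP12 had the lowest log2 fold change of the 56 in K504E-white against WT-red, -0.41 (SE 0.077, adjusted p = 0.000263 by edgeR). Its 3 groups did not overlap.

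**Figure D3:**
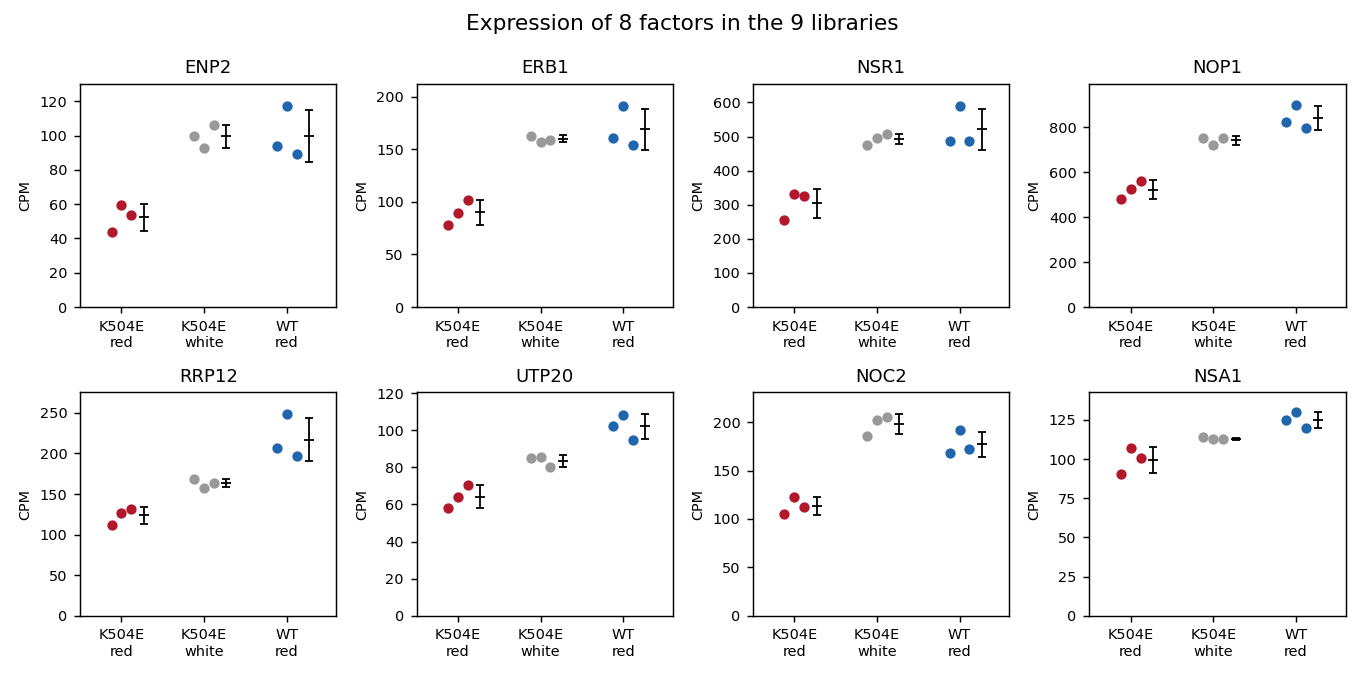
CPM of 8 factors in each library (points, replicates 1 to 3 left to right) with the group mean and SD (bars, n = 3) in K504E-red, K504E-white and WT-red. In ENP2, ERB1, NSR1 and NOC2 the K504E-white libraries overlap those of WT-red, and in RRP12, UTP20, NOP1 and NSA1 they lie below WT-red. In all 8 panels the K504E-red libraries lie below the other groups.

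Among the large-subunit factors, MAK21 (also called NOC1), NOC2 and NOC3 form complexes that escort early and middle precursors. MAK21 had 130, 159 and 162 CPM in K504E-red, 228, 221 and 227 in K504E-white and 219, 263 and 222 in WT-red. NOC2 (contig 7, 240536 to 242668, minus strand) had 105, 123 and 112 CPM in K504E-red, 186, 202 and 205 in K504E-white and 168, 192 and 172 in WT-red. NOC2 had the highest log2 fold change of the 56 in K504E-white against WT-red, 0.16 (SE 0.068), which was not called (adjusted p = 0.0639 by edgeR). NOC3 fell by 0.69 on the log2 scale in K504E-red against WT-red.

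The helicases of this pathway remodel the RNA with ATP. DBP3 had 167, 190 and 205 CPM in K504E-red, 298, 283 and 298 in K504E-white and 263, 317 and 273 in WT-red. DRS1 had 93.1, 102 and 115 CPM in K504E-red, 154, 147 and 161 in K504E-white and 158, 180 and 140 in WT-red. In both genes K504E-white overlapped WT-red. The helicase DBP9 had a log2 fold change of 0.81 in K504E-white against K504E-red. For K504E-white relative to WT-red it was 0.09, not called (adjusted p = 0.369 by edgeR).

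Nop7 and Erb1 belong to 1 complex that is needed to remove the internal spacer next to the large-subunit RNA. NOP7 had 175, 210 and 215 CPM in K504E-red, 318, 327 and 333 in K504E-white and 321, 373 and 300 in WT-red. ERB1 (contig 189, 5215 to 7638, minus strand) had 77.9, 89.7 and 102 CPM in K504E-red, 163, 157 and 159 in K504E-white and 161, 191 and 154 in WT-red. ERB1 had the second lowest log2 fold change in K504E-red against WT-red, -0.91 (SE 0.0877, adjusted p = 5.67e-07 by edgeR), and 0.83 in K504E-white against K504E-red. K504E-white lay within the WT-red range in both genes.

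RPF2 carries the 5S RNA particle to the subunit. It had 50.5, 66.6 and 67.7 CPM in K504E-red, 103, 106 and 113 in K504E-white and 112, 129 and 99.0 in WT-red. RPF2 fell by 0.88 on the log2 scale (SE 0.102) in K504E-red relative to WT-red. EBP2, a nucleolar factor of the large subunit, had 96.3, 108 and 116 CPM in K504E-red, 203, 190 and 209 in K504E-white and 188, 197 and 178 in WT-red. EBP2 rose by 0.91 on the log2 scale in K504E-white against K504E-red (SE 0.0674, adjusted p = 3.76e-09 by edgeR). In K504E-white it was not called against WT-red.

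Members of 1 module did not all share 1 size of change. RPF1, MAK16 and NSA1 sit together on early precursors, and their log2 fold changes in K504E-red against WT-red were -0.65, -0.81 and -0.33. NSA1 (contig 253, 143452 to 144843, plus strand) had 90.3, 107 and 101 CPM in K504E-red, 114, 113 and 113 in K504E-white and 125, 130 and 120 in WT-red. Its change was the smallest of the 56 in K504E-red against WT-red and in K504E-white against K504E-red, where it was 0.19 (SE 0.0644, adjusted p = 0.0179 by edgeR). Without K504E-red replicate 1 the call of NSA1 between the colours was lost (log2 fold change 0.13, adjusted p = 0.105 by edgeR), as it was without both that library and WT-red replicate 2 (adjusted p = 0.0825). RRP14 and RRP15, partners in another early module, fell by 0.49 and 0.43 on the log2 scale in K504E-red against WT-red.

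NOP2, which methylates a cytosine of the large-subunit RNA, had 162, 184 and 204 CPM in K504E-red, 280, 283 and 285 in K504E-white and 252, 293 and 232 in WT-red. It had a log2 fold change of 0.13 in K504E-white against WT-red (SE 0.0799, adjusted p = 0.209 by edgeR). NSA2 and NUG1 act late in the nucleus, NUG1 as a GTPase. NSA2 had 68.9, 75.7 and 89.1 CPM in K504E-red, 115, 110 and 118 in K504E-white and 117, 131 and 108 in WT-red. NUG1 had 112, 136 and 138 CPM in K504E-red, 189, 199 and 204 in K504E-white and 199, 227 and 178 in WT-red. Both were lower in K504E-red than in the other groups, which overlapped. The other large-subunit factors NOP4, NOP12, NOP15, NOP16, PWP1 and RLP7 fell by 0.54 (NOP16) to 0.77 (NOP4) on the log2 scale in K504E-red against WT-red.

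Levels between genes were compared on FPKM, which divides by coding length. The median FPKM of the small-subunit factors was 31.8 in K504E-red, 45.8 in K504E-white and 51.1 in WT-red. For the large-subunit factors it was 66.7 in K504E-red, 100 in K504E-white and 106 in WT-red. The median of all genes tested was 54.7 FPKM in K504E-red, 55.0 in K504E-white and 56.5 in WT-red. The small-subunit median divided by the large-subunit median was 0.477 to 0.487 in the K504E-red libraries, 0.450 to 0.459 in the K504E-white libraries and 0.465 to 0.502 in the WT-red libraries. The lowest FPKM among the factors was that of UTP20, at 8.49 in K504E-red, 11.1 in K504E-white and 13.6 in WT-red.

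Some complexes had evenly expressed genes among the 56 factors. The highest of the 4 UtpB genes among them exceeded the lowest by 1.28-fold in K504E-red, 1.26-fold in K504E-white and 1.39-fold in WT-red. UTP6 and UTP18 of UtpB are outside the 56. UTP18 had 21.4 FPKM in K504E-red, 25.7 in K504E-white and 36.9 in WT-red, below those 4 genes in each group. UTP6 lay within their range. The 3 Mpp10 complex genes lay within 1.12-fold of each other in K504E-red, 1.32-fold in K504E-white and 1.13-fold in WT-red. Within the U3 snoRNP the core proteins far exceeded RRP9, and NOP1 was 14.7-fold above it in K504E-red, 15.1-fold in K504E-white and 15.1-fold in WT-red.

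Relative to WT-red, the log2 fold changes of the 56 factors in K504E-white went with their level. Pearson's r with log2 mean FPKM was 0.48 and Spearman's rho was 0.58, as a description over genes that share the same 9 libraries. Large-subunit factors had both the higher median FPKM and the higher median log2 fold change, so level and subunit are not separated here. For K504E-red relative to WT-red the same coefficients were 0.10 and 0.14. With log2 coding length r was -0.28 and rho -0.20 for K504E-white relative to WT-red.

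**Figure D4:**
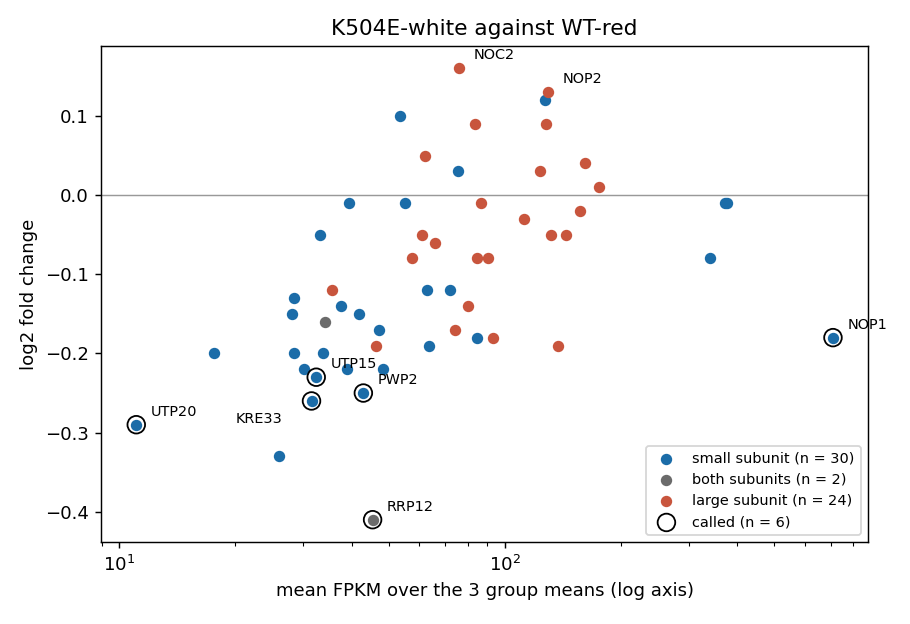
Log2 fold change in K504E-white against WT-red plotted on the mean FPKM of each factor (log axis), for small-subunit (blue), large-subunit (red) and shared (grey) factors, with circles round the 6 called. The called factors lie between -0.41 and -0.18, and no large-subunit factor is among them in this fit.

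Some factors were neighbours on the W303 contigs. LCP5, a processome factor, and NSA2 lie 300 bp apart on contig 177 and point away from each other (LCP5 at 15933 to 17006, NSA2 at 17307 to 18092). Their log2 fold changes in K504E-red against WT-red were -0.63 and -0.61. NOP56 and PWP1 follow each other on contig 158 and had -0.68 and -0.61. RRP15 and NOC4 end towards each other on contig 8 and had -0.43 and -0.55. No factor overlapped another gene model of the table.

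By the protein families in the deposited descriptions, 3 of the 4 tested genes with a Brix domain were among the factors, namely IMP4, RPF1 and RPF2. They fell by 0.53, 0.65 and 0.88 on the log2 scale in K504E-red against WT-red. The RNA recognition motif was listed for 4 factors (NOP4, NOP12, NOP15 and NSR1), with a median log2 fold change of -0.73 in that comparison.

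Other assembly factors were read from lists of 43 small-subunit and 43 large-subunit genes, of which 41 each were tested. In K504E-red against WT-red, 40 of 41 small-subunit genes fell, with a median of -0.59, and 40 of 41 large-subunit genes fell, with a median of -0.67, where 21.7% of all genes tested were called lower. The exceptions were NOP19 (log2 fold change -0.28, adjusted p = 0.0913 by edgeR) and SPB4, a helicase (log2 fold change -0.04, adjusted p = 0.629). The lowest were FAF1 (-1.03) and DHR2 (-1.0) of the small-subunit list and ALB1 (-1.32) and RSA4 (-1.06) of the large-subunit list. The highest besides NOP19 and SPB4 were RRP7 (-0.23) and DBP6 (-0.29).

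In K504E-white against K504E-red, 37 of 41 small-subunit genes rose, and 33 large-subunit genes rose while SQT1, a chaperone of ribosomal protein Rpl10, fell by 0.30 on the log2 scale (adjusted p = 0.00287 by edgeR). Of all genes tested, 27.2% were called higher and 27.3% lower. The highest were FAF1 (0.90), DBP4 (0.89), ALB1 (1.24) and SDA1 (0.98), and the lowest besides SQT1 were NOP19 (0.03), EMG1 (0.09) and AFG2 (-0.05). In K504E-white against WT-red, 9 small-subunit genes fell and none rose, and 13 large-subunit genes fell while NOP8 rose by 0.26 (adjusted p = 0.0282 by edgeR). Of all genes tested, 23.5% were called lower and 23.3% higher. The small-subunit count of 9 of 41 is near that share, and the large-subunit count of 13 of 41 is somewhat above it. Their medians were -0.08 for small-subunit and -0.15 for large-subunit genes, the reverse of the order among the 56 factors. The lowest were UTP18 (-0.52), UTP9 (-0.46), SQT1 (-0.63) and RSA4 (-0.61). The highest besides NOP8 were SLX9 (0.19), LTV1 (0.19) and MDN1 (0.17), none of which was called.

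Of 9 regulators of this regulon, 8 were tested, and TOD6 was not analysed here. DOT6, a repressor that binds promoters of the regulon, rose by 0.43 on the log2 scale in K504E-red and by 0.44 in K504E-white, each against WT-red (adjusted p = 1.5e-05 and 1.01e-05 by edgeR). STB3, another repressor, rose by 0.22 and 0.19 in the same comparisons. DOT6 (0.00) and STB3 (-0.03) were not called in K504E-white against K504E-red. Any part of the regulators in the levels of the factors was not tested.

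The values that follow are log2 fold changes called by edgeR unless stated. SCH9, the growth kinase, fell by 0.28 in K504E-red against WT-red and rose by 0.27 in K504E-white against K504E-red. SFP1, an activator of the regulon, differed in the opposite directions, with 0.23 in K504E-red against WT-red and -0.23 in K504E-white against K504E-red, both called. IFH1, a coactivator of ribosomal protein genes, fell by 0.33 in K504E-red against WT-red. CRF1, its corepressor, had 25.4, 25.4 and 20.0 CPM in K504E-white, and fell by 0.96 there against K504E-red and by 0.67 against WT-red. It rose by 0.29 in K504E-red against WT-red (adjusted p = 0.047 by edgeR). HMO1 rose by 0.17 in K504E-white against K504E-red, and FHL1 was called in no comparison.

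A list of 25 stress and stationary phase genes, 21 of them tested, was read beside the factors. In K504E-red, 18 rose relative to WT-red and none fell, where 25.8% of all genes tested were called higher. In K504E-white, 15 rose and 2 fell relative to WT-red, where 23.3% of all genes tested were called higher and 23.5% lower. In K504E-white against K504E-red, 7 rose and 9 fell, where 27.2% of all genes tested were called higher and 27.3% lower. The median of the list over the WT-red mean was 0.58, 0.42 and 0.45 in the K504E-red libraries, 0.43, 0.43 and 0.36 in the K504E-white libraries and 0.03, -0.10 and 0.08 in the WT-red libraries, on the log2 scale. The median of the list was above the WT-red mean in every K504E-red and K504E-white library, though not every gene of it was. The medians of the factors against WT-red were -0.65 in K504E-red and -0.12 in K504E-white. Any part of the stress genes in the levels of the factors was not tested.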

How the data were processed

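RNA was extracted and poly(A)-enriched libraries were prepared by a sequencing provider, per the labels' protocols. The authors deposited whole-number counts per gene, without normalization, and FPKM values per library, per the file headers. The deposited FPKM matched counts divided by length and by a depth of 0.986 to 1.03 times the summed counts. The aligner, the counting program and the use of strand are not given in the sources used here. The deposited table places the genes on 195 contigs of W303. Gene lengths there are coding lengths. Columns W, K and KW with replicate numbers were assigned from the sample titles and from the names of the authors' group means; 0 columns were left unmapped.

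Counts were tested with edgeR 4.0.16 in R 4.3.3 (filterByExpr, TMM, quasi-likelihood F test, two-sided, all 9 libraries, group as the only term), with Benjamini-Hochberg adjustment over the 5172 genes tested. A gene was called at an adjusted p under 0.05. SE was computed from the F statistic, and CPM is the count over the TMM-scaled library size per 1000000. On simulated counts for 5172 genes in K504E-red against WT-red, 98% of changes of 0.6 and 98% of changes of 1.5 on the log2 scale were recovered, with 6 false calls. The simulation changed 200 genes and took its spread from the fit. Smaller changes, such as the -0.41 to 0.16 of the factors in K504E-white against WT-red, were not simulated. Replicates of a group correlated at 0.995 to 0.997 over genes. The labels call them biological replicates and do not say that cultures were separate, so p-values measure the spread between these samples.

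The factors and lists were chosen with earlier results of these data known. Factors given in every library were a fixed list of names and the 3 highest and 3 lowest log2 fold changes of each comparison; of the other factor lists the 2 highest and 2 lowest were named, and all regulators. NOC4 is outside that rule, and its values in every library were added after they were seen. Symbols came from RefSeq for S288C assembly R64 and were used for names. That genome is not the build of the counts, so promoter and protein sequences were not used here. Alternatives were other scalings, filters and tests (DESeq2 1.42.0, limma 3.58.1 on log2 FPKM), a replicate block and omission of libraries.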

Additional observations from a re-analysis of the deposited data

Results flagged for a closer look

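For 55 of the 56 factors the change from WT-red differed between the white and red mutant colonies, by edgeR's direct test of the colours, which is the test of that difference. It is the same test of K504E-white against K504E-red as reported above. Of all genes tested, 27.2% were called higher and 27.3% lower by it. Each of the 55 fell in K504E-red relative to WT-red and was higher in K504E-white than in K504E-red. The remaining factor, RRP36, had a log2 fold change of 0.25 between the colours (SE 0.12, adjusted p = 0.0924 by edgeR).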

How the results depend on the processing

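In K504E-red against WT-red all 56 factors were called, and in K504E-white against K504E-red 53 to 56, in each fit that left out 1 library and in the other scalings, filters and tests, apart from a null of 1.5-fold. That null left 3 factors lower in K504E-red against WT-red, 6 higher between the colours, and 0 for K504E-white relative to WT-red. For this last comparison, where 6 were called lower, 14 were called lower with upper quartile scaling, 16 with genes of at least 1 count, 16 with at least 10 counts in every library, and 15 lower and 1 higher (16 in all) with only the groups compared in the model. Leaving out 1 library gave medians of -0.719 to -0.565 (small subunit) and -0.735 to -0.552 (large subunit) in K504E-red against WT-red. For K504E-white relative to WT-red it gave 5 to 18 called, 2 to 18 lower and 0 to 3 higher. Those calls changed also when a K504E-red library, outside the comparison, was left out; the cause was not tested. There, 19 uncalled factors changed sign under some setting. No called factor reversed. The share of all genes called under these settings is not given here. Without WT-red replicate 2 and K504E-red replicate 1, a setting chosen after seeing the data, the medians for K504E-red were -0.489 (small subunit) and -0.457 (large subunit), and 4 factors were called higher and 4 lower for K504E-white relative to WT-red.

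With a replicate block, 9 factors were called in K504E-white against WT-red, 1 of them higher. The share of all genes called with the block is not given here, so this number cannot be read as particular to the factors. Same-numbered libraries did not deviate together (r of -0.11 to 0.0274 over 9 pairs, against -0.113 to 0.135 over 18 other pairs). No pairing by number was thus seen in these values, which cannot exclude one in the experiment.

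The description of promoter motifs and its alternative were not run, since the reference genome is not the build of the counts.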
